A study of Mus musculus with 10 samples.

Results

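The enzymes described here carry out the first, functionalising step of hepatic detoxification without a cytochrome P450: alcohol dehydrogenases (Adh), aldehyde dehydrogenases (Aldh), aldo-keto reductases (Akr), carboxylesterases (Ces) and flavin-containing monooxygenases (Fmo). Members were taken by gene symbol, from probe sets with a single symbol that began with Aldh or with Adh, Akr, Ces or Fmo and a digit, without Aldh4a1, Aldh18a1 and Akr1d1, and where a gene had several probe sets the brightest, averaged across all 10 arrays, stood for it. This gave 56 of the 18193 named genes: 18 Aldh, 7 Adh, 14 Akr, 13 Ces and 4 Fmo genes. They were read by 91 probe sets, and 20 genes had more than 1.

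Liver RNA of 10 lactating mice of the QSi5 strain was measured on Affymetrix expression arrays, with 1 array per mouse. The HGI group, 5 mice, was fed a high glycaemic index diet in which glucose made up 51.4% of the weight, at 15.6 MJ/kg. The LGI group, also 5 mice, was fed a low glycaemic index diet in which a high-amylose starch took that share, at 16.3 MJ/kg. Both diets ran from pregnancy to the peak of lactation, when the livers were taken. The labels record a positive energy balance for all HGI mice and a negative one for all LGI mice, so diet and energy balance cannot be told apart, and ages are not given in the sources used here. All values are the authors' log2 expression values, and a difference is always the HGI mean less the LGI mean, in log2 units.

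These families act on carbonyls, alcohols, esters and nucleophilic nitrogen or sulfur. Alcohol dehydrogenases turn ethanol and retinol into aldehydes, and aldehyde dehydrogenases turn aldehydes into acids, among them retinal into retinoic acid. Aldo-keto reductases run the other way and reduce aldehydes and ketones, including steroids, with NADPH. Carboxylesterases split esters, amides and, in liver, also stored acylglycerols. Flavin-containing monooxygenases oxidise soft nucleophiles such as amines and sulfides. Hepatocytes carry most of them, and several lie in clusters of close relatives in the mouse genome.

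The tissue label was checked against markers: the 7 hepatocyte markers (among them Alb, Ttr and Apoa1) had a mean level of 12.68 to 12.87 in HGI and 12.51 to 12.78 in LGI. Of their differences 5 of 7 lay above 0 (median 0.03), with Ass1 at 0.50, and Cps1 (-0.19) and Fah (-0.10) lay below 0. A pair of arrays stood apart. HGI 1 had the narrowest spread of values (SD 2.16, against 2.26 to 2.31 for the other arrays), and over the 7161 genes whose mean log2 reached 6 its values lay a median of 0.26 below the gene's mean of all arrays. LGI 4 correlated least with the other mice of its diet (mean r 0.988). All markers of Kupffer cells (7 of 7 measured), of sinusoidal endothelium (6 of 6) and of red cells (3 of 3) had differences above 0, with medians of 0.30, 0.22 and 1.34. The mean Kupffer level ran from 7.53 to 8.46 in HGI and from 7.26 to 8.02 in LGI, the endothelial one from 6.39 to 7.05 against 6.16 to 6.49, and the red cell one from 5.96 to 6.89 against 4.68 to 5.98. The red cell marker Hba-a1 and the endothelial marker Pecam1 lay below the median of every array. Markers of zones within the hepatocytes leaned the other way. Of the pericentral markers 5 of 6 lay below 0 (median -0.16), with Oat at -1.10 (limma adjusted p = 0.0575) and Glul, above 0, at 0.27, and their mean level ran from 9.10 to 9.44 in HGI and from 9.12 to 9.84 in LGI. All 3 periportal markers measured, Hal, Cyp2f2 and Pck1, lay below 0 (median -0.28), with a mean level of 11.64 to 12.03 against 11.91 to 12.23. None of these markers passed the threshold, and their part in the differences below was not tested. In RNA of whole liver, fewer cells of a type and less RNA per cell cannot be told apart.

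No member of the 5 families passed an adjusted p of 0.05 in the limma fit over all 45037 probe sets, where 0.0644% of all probe sets and 0.0824% of all genes passed. The smallest adjusted p among members was 0.161. Without adjustment 13 of the 56 members had a p under 0.05. All 13 were lower in HGI, which is 23.2% of the members against 6.23% of all genes, and 0 were higher, against 3.07% of all genes. In the exact permutation test 12 members had an unadjusted p under 0.05. The share of all genes under that test was not counted, so whether 12 of 56 is many cannot be told. The smallest possible p of the exact test, 0.00794, came to an adjusted p of 0.475, so no member could pass adjustment. The values of the HGI and LGI mice did not overlap at 5 members, all lower in HGI (1.67% of all genes), and at 0 members higher in HGI (0.500% of all genes).

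A share of the members had little signal. Of the 56, 38 had a mean log2 of at least 6, and 10 had a mean below the median of every array (3.91 to 3.97). Among the 38 brighter members 11 were lower in HGI at an unadjusted p under 0.05, or 28.9%, against 9.79% of all genes as bright, and the groups did not overlap at 5, or 13.2%, against 2.86%. Bright genes in general leaned the same way, with 701 lower and 273 higher at that p. After a further quantile normalization that split was 669 lower and 436 higher, and the bright members still counted 11 lower and 0 higher. Without HGI 1, 10 of the 38 members were lower and 0 higher, while bright genes no longer leaned to the lower side, with 434 lower (6.06%) and 515 higher. The plot of all differences shows the 11 as filled points left of 0 whose bars do not reach it.

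**Figure D1:**
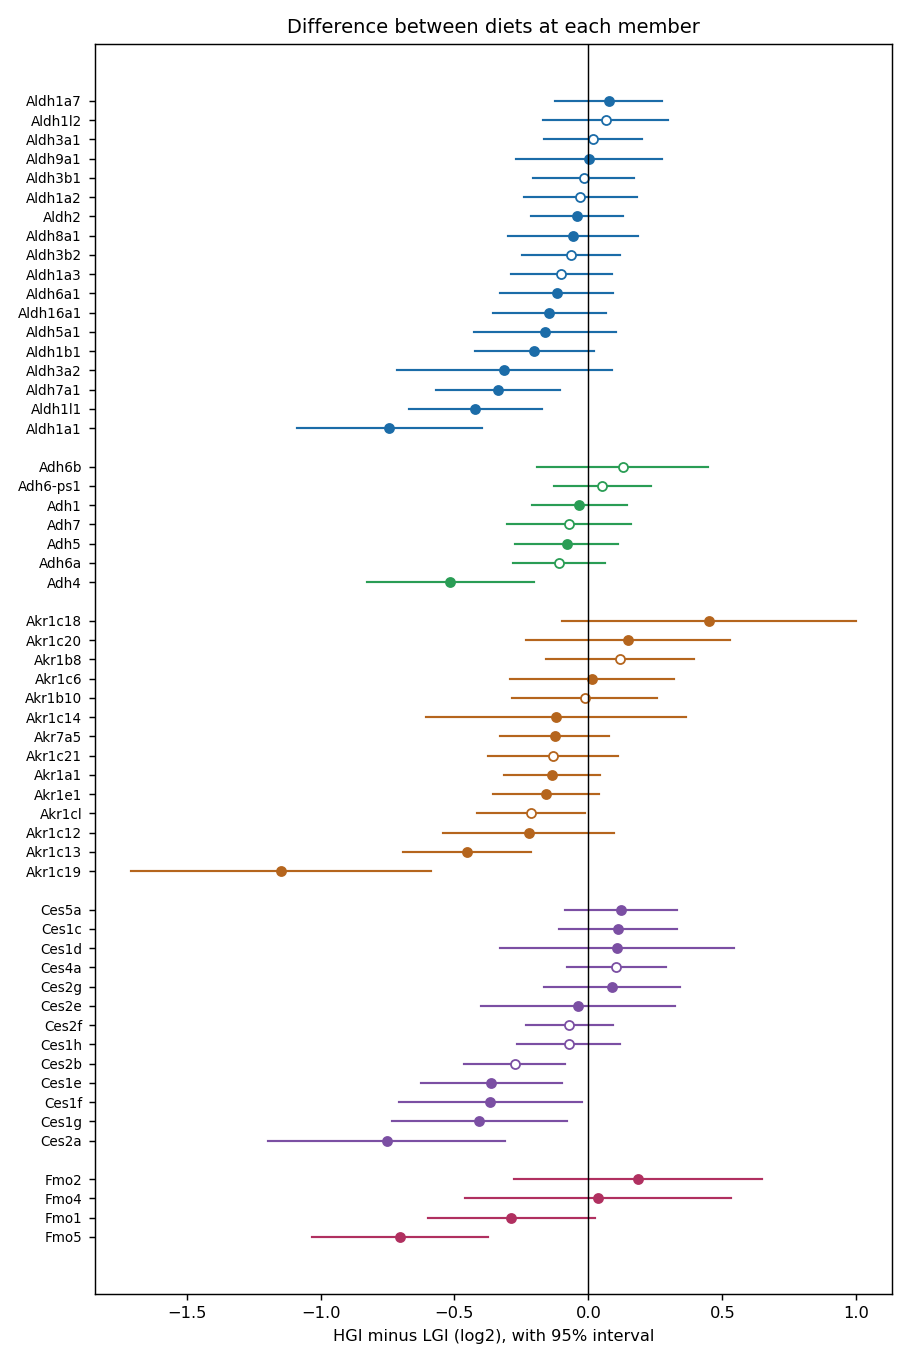
Difference between diets (HGI minus LGI, log2) at each of the 56 members, with the 95% interval of the limma fit, grouped and coloured by family. Filled points have a mean log2 of at least 6 and open points a lower one. The lowest point is Akr1c19 at -1.15, and the highest is Akr1c18 at 0.45, whose interval crosses 0.

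By family, the median difference was -0.08 for Aldh, -0.07 for Adh, -0.13 for Akr, -0.07 for Ces and -0.13 for Fmo, beside -0.03 for all genes. These medians moved when 1 array was left out. The Fmo median, over 4 genes, ran from -0.28 without LGI 4 to -0.03 without HGI 1, and also moved by over 1.5 times without HGI 3, HGI 4, HGI 5, LGI 1 or LGI 2. The Adh median came to -0.02 without HGI 5, -0.04 without HGI 2 and -0.03 without LGI 5, the Ces median to -0.04 without LGI 4 and the Akr median to -0.09 without LGI 3. Differences below 0 were seen at 14 of 18 Aldh, 5 of 7 Adh, 10 of 14 Akr, 8 of 13 Ces and 2 of 4 Fmo genes, against 58.2% of all genes. For members with a mean log2 of at least 6 the medians, in that order, were -0.15, -0.08, -0.13, -0.039 and -0.13. All genes as bright had a median of -0.044. Of these members 10 of 12, 3 of 3, 7 of 10, 5 of 9 and 2 of 4 lay below 0. The share of all genes as bright was 62.1%, above those of Ces and Fmo. The members at an unadjusted p under 0.05 numbered 3 Aldh, 1 Adh, 3 Akr, 5 Ces and 1 Fmo genes. The shares were 16.7%, 14.3%, 21.4%, 38.5% and 25% in that order, against 6.23% of all genes lower at that p. In Adh and Fmo the count was a single gene each, Adh4 and Fmo5. No test of a family was made, since members were chosen with earlier results of these data known.

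Among the aldehyde dehydrogenases, Aldh1a1, the cytosolic enzyme that makes retinoic acid from retinal, had the largest difference. Its log2 values were 11.57, 11.72, 12.16, 12.04 and 11.69 in the HGI mice and 12.38, 12.51, 12.36, 13.17 and 12.45 in the LGI mice. Every HGI mouse lay below every LGI mouse, and LGI 4 stood above the other LGI mice. The level was 1.67-fold lower in HGI (-0.74 ± 0.16, log2 difference ± SE, n = 5 each; limma adjusted p = 0.161). Without LGI 4 the difference was -0.59, and without HGI 1 it was -0.68.

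Aldh1a7, a close rodent relative of Aldh1a1 on the same chromosome, did not separate the diets. Its values were 12.73, 12.47, 12.53, 12.31 and 12.70 in HGI and 12.35, 12.46, 12.51, 12.46 and 12.58 in LGI, and the groups overlapped. The difference was 0.08, with a 95% interval of -0.12 to 0.28. Within each mouse, Aldh1a1 minus Aldh1a7 ran from -1.16 to -0.27 in HGI and from -0.15 to 0.71 in LGI, without overlap. That comparison was chosen after the values were seen and was not tested.

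The starts of these genes are shown because Aldh1a1 separated the diets and Aldh1a7 did not, while part of their upstream sequence is the same. RefSeq gives 2 starts for Aldh1a1 and 1 for Aldh1a7 (build GRCm38.p6), and the Aldh1a1 window that aligned best with Aldh1a7 is printed. Each line holds the 250 bases before the start, 5′ to 3′ on the gene's strand, at chr19:20601718-20601967 (+) for Aldh1a1 and chr19:20727557-20727806 (-) for Aldh1a7. Capitals mark the longest run of bases the windows share, 65 bases long, and 65.3% of the 265 columns of a global alignment were identical.
Aldh1a1: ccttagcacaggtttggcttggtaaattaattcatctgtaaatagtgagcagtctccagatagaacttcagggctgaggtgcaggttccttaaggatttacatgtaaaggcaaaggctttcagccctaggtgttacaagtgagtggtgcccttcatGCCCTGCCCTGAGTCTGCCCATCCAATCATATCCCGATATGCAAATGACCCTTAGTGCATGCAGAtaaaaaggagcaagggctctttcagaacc
Aldh1a7: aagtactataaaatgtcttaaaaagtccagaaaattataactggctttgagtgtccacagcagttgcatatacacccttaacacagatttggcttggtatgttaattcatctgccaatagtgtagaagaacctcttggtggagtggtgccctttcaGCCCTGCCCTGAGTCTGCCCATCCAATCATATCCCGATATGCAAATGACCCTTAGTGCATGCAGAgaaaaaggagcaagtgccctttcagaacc

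Aldh1l1, the folate enzyme that oxidises 10-formyltetrahydrofolate, had values of 12.06, 12.38, 12.40, 11.94 and 11.99 in HGI and 12.58, 12.66, 12.70, 12.29 and 12.64 in LGI. Only LGI 4 reached the range of the HGI mice. The difference was -0.42 ± 0.12 (SE, n = 5 each; limma adjusted p = 0.328), and its other, much dimmer probe set stood at -0.47. Aldh7a1, which works in lysine breakdown, had values of 10.31, 10.84, 10.85, 10.64 and 10.49 in HGI and 10.94, 11.03, 11.05, 10.83 and 10.95 in LGI. The groups overlapped only through LGI 4. Its difference was -0.34 ± 0.11 (SE, n = 5 each; limma adjusted p = 0.453), with its dimmer probe sets at -0.26 and -0.13.

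The remaining aldehyde dehydrogenases differed by less. Aldh2, the mitochondrial enzyme that clears acetaldehyde, stood at -0.04, with a 95% interval of -0.22 to 0.13, and its 4 other probe sets lay between -0.16 and 0.25. Aldh9a1, an enzyme of carnitine synthesis, stood at 0.00 (interval -0.27 to 0.28), Aldh8a1 of tryptophan breakdown at -0.06 and Aldh6a1 of valine breakdown at -0.12. Aldh1b1, a mitochondrial relative of Aldh2, stood at -0.20 (limma adjusted p = 0.704), Aldh5a1, which oxidises succinic semialdehyde, at -0.16, and Aldh16a1 at -0.15. Aldh3a2, the fatty aldehyde dehydrogenase of microsomes and a target of PPARalpha, stood at -0.31 (limma adjusted p = 0.759). Its HGI values spread from 9.52 to 10.77 and its LGI values from 10.27 to 10.68, so the diets overlapped. The difference was -0.15 without HGI 1 and -0.46 without HGI 3, where its unadjusted p was 0.0132. Aldh1a2, Aldh1a3, Aldh1l2, Aldh3a1, Aldh3b1 and Aldh3b2 had a mean log2 under 6, and their differences lay between -0.10 and 0.06.

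Among the alcohol dehydrogenases, Adh1, the main ethanol and retinol dehydrogenase of liver, did not separate the diets. Its values were 13.73, 13.70, 13.88, 13.88 and 13.71 in HGI and 13.78, 13.90, 13.83, 13.64 and 13.91 in LGI. The difference was -0.03, with a 95% interval of -0.21 to 0.14. Adh5, which oxidises the glutathione adduct of formaldehyde, stood at -0.08 (interval -0.28 to 0.11).

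Adh4, the class II enzyme, was the exception in this family. Its values were 9.03, 9.08, 9.16, 9.04 and 9.08 in HGI and 9.21, 9.39, 9.55, 10.19 and 9.62 in LGI. The HGI mice lay close together and below every LGI mouse, and LGI 4 was the highest. The level was 1.43-fold lower in HGI (-0.52 ± 0.14, SE, n = 5 each; limma adjusted p = 0.350), and the difference was -0.37 without LGI 4. Within each mouse, Adh4 minus Adh1 ran from -4.84 to -4.62 in HGI and from -4.57 to -3.45 in LGI. The difference between diets was -0.48 and became -0.29 without LGI 4. This pair was chosen after its values were seen and was not tested. Adh7, the class IV enzyme of stomach and skin, stood at -0.07 with a mean log2 of 5.60. Adh6a, Adh6b and the pseudogene Adh6-ps1 lay below the median of every array, at -0.11, 0.13 and 0.05.

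**Figure D2:**
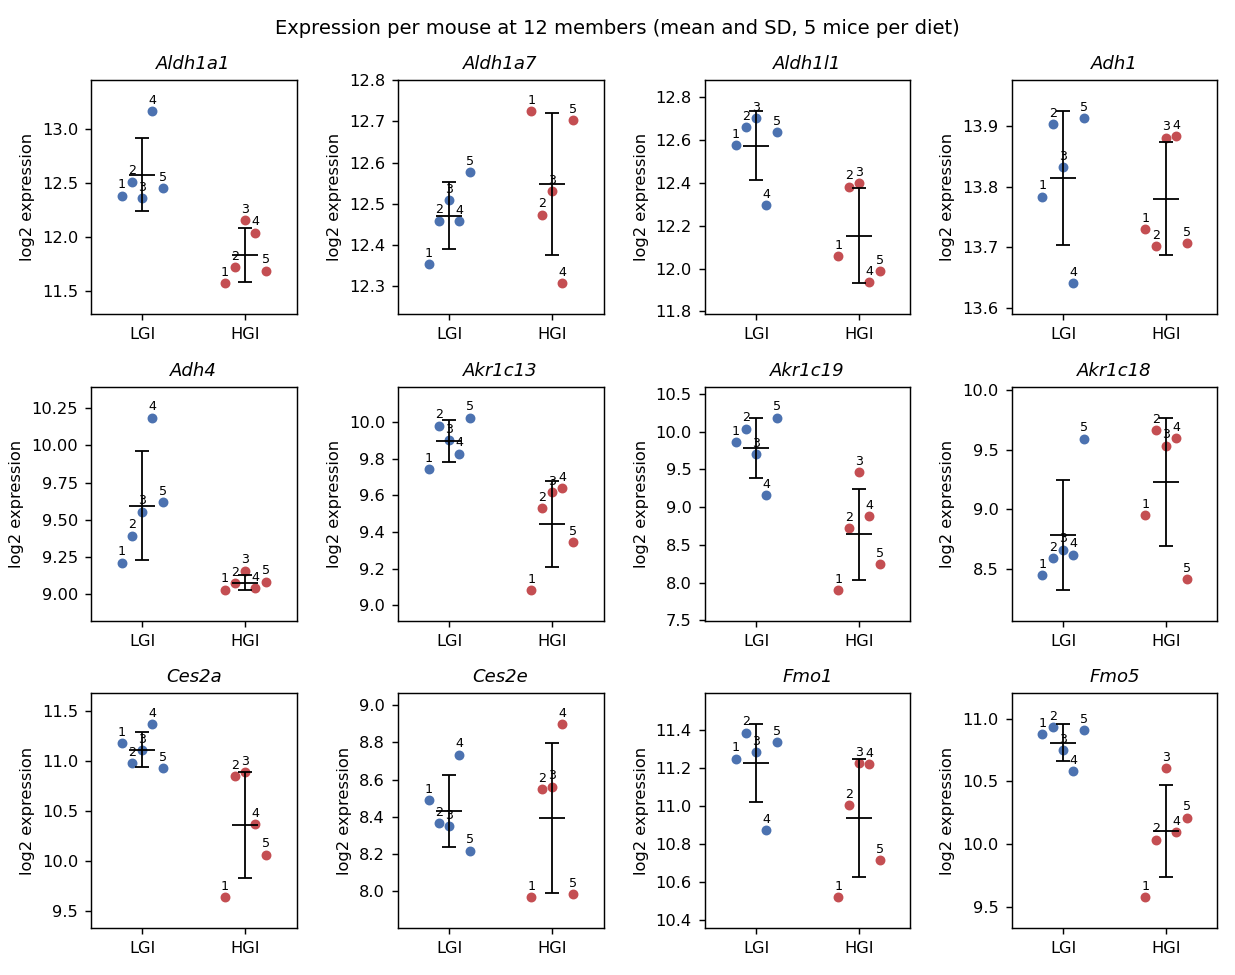
Log2 expression in each mouse at 12 members, in LGI (blue) and HGI (red), with the mouse's replicate number above its point and the mean and SD of 5 mice in black. The vertical axes differ between panels and do not start at 0. Aldh1a1, Adh4, Akr1c13 and Ces2a separate the diets without overlap, while Aldh1a7, Adh1, Akr1c18, Ces2e and Fmo1 overlap.

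The aldo-keto reductases held both the lowest and the highest difference of the 56 members, in 1 gene cluster on chromosome 13. Akr1c19 had values of 7.90, 8.72, 9.47, 8.88 and 8.24 in HGI and 9.86, 10.04, 9.70, 9.16 and 10.19 in LGI. LGI 4 was the only LGI mouse below an HGI mouse, and it lay below HGI 3 alone. The level was 2.22-fold lower in HGI (-1.15 ± 0.26, SE, n = 5 each; limma adjusted p = 0.192), from -1.35 to -0.96 whichever array was left out.

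Akr1c18, the 20alpha-hydroxysteroid dehydrogenase that inactivates progesterone, lay on the other side. Its values were 8.95, 9.67, 9.53, 9.60 and 8.42 in HGI and 8.45, 8.59, 8.66, 8.62 and 9.59 in LGI. The LGI mice lay close together apart from LGI 5, and the groups overlapped. The difference was 0.45, with a 95% interval of -0.10 to 1.00 (limma adjusted p = 0.743). Akr1c19 minus Akr1c18 ran from -1.05 to -0.07 in the HGI mice and from 0.54 to 1.45 in the LGI mice, without overlap, in a pair chosen after its values were seen and not tested.

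Akr1c13, which reduces xenobiotic carbonyls, had values of 9.08, 9.53, 9.62, 9.64 and 9.35 in HGI and 9.74, 9.98, 9.90, 9.83 and 10.02 in LGI, without overlap. The difference was -0.45 ± 0.11 (SE, n = 5 each; limma adjusted p = 0.246), and -0.36 without HGI 1, the lowest mouse. Its neighbour Akr1c12 stood at -0.22 (limma adjusted p = 0.796). Because these genes are closely related, a probe set named for 1 of them may also read another. The same limit applies to the Aldh1a, Ces1 and Ces2 genes. Probe sets that the annotation gives to several genes were left out, but reading between relatives was not checked by sequence.

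Other members of the cluster that handle steroids stood near 0. Akr1c6, a 17beta-hydroxysteroid dehydrogenase of liver, stood at 0.01 (interval -0.29 to 0.32), Akr1c14, a 3alpha-hydroxysteroid dehydrogenase, at -0.12 (interval -0.61 to 0.37), Akr1c20 at 0.15 and Akr1c21, with a mean log2 of 4.59, at -0.13. LGI 4 was the lowest LGI mouse at Akr1c6, Akr1c14 and Akr1c20. Outside the cluster, Akr1a1, the aldehyde reductase that mice need to make vitamin C, stood at -0.14 at its brightest probe set and between -0.25 and -0.21 at its 3 others, of which 2 separated the diets without overlap. Akr7a5, which reduces succinic semialdehyde and the dialdehyde of aflatoxin, stood at -0.13, and Akr1e1, a 1,5-anhydrofructose reductase, at -0.16. The Akr7a5 probe set is of a kind that can also read other transcripts, and the dimmer probe sets of Akr7a5 stood at -0.05 and -0.03. Akr1b8 and Akr1b10, with a mean log2 of 5.34 and 4.73, stood at 0.12 and -0.01. Akr1cl had an unadjusted p of 0.0395 at -0.21, but its mean log2 of 3.63 lay below the median of every array.

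The carboxylesterases had the most members at an unadjusted p under 0.05, 5 of 13, all lower in HGI. This was 38.5%, against 6.23% of all genes lower at that p. Among the 5 were Ces2b, below the median of every array, and Ces1f, which kept that p in 3 of 10 fits without 1 array. Ces2a, an esterase of the endoplasmic reticulum that also hydrolyses acylglycerols, had values of 9.64, 10.85, 10.88, 10.37 and 10.06 in HGI and 11.18, 10.98, 11.11, 11.37 and 10.93 in LGI. All HGI mice lay below all LGI mice, although HGI 2 and HGI 3 came within 0.1 of the lowest. The level was 1.69-fold lower in HGI (-0.75 ± 0.20, SE, n = 5 each; limma adjusted p = 0.321), and the difference was -0.57 without HGI 1.

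Ces2e, a relative of Ces2a on the same chromosome, stood at -0.04, with a 95% interval of -0.40 to 0.32. Its values were 7.97, 8.55, 8.56, 8.90 and 7.99 in HGI and 8.49, 8.37, 8.35, 8.73 and 8.22 in LGI, and the diets overlapped. Within each mouse Ces2a minus Ces2e ran from 1.47 to 2.32 in HGI and from 2.62 to 2.76 in LGI. The SD of this difference was 0.06 in the LGI mice and 0.38 in the HGI mice. In other pairs the SDs in LGI and HGI were 0.35 and 0.39 (Aldh1a1 minus Aldh1a7) and 0.43 and 0.45 (Akr1c19 minus Akr1c18). They were 0.45 and 0.09 for Adh4 minus Adh1, and 0.09 and 0.26 for Fmo5 minus Fmo1. Ces2a and Ces2e were paired after their values were seen, and no test of the difference or its spread was made.

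The upstream windows of Ces2a and Ces2e are shown as those of another pair of relatives of which 1 separated the diets (RefSeq, GRCm38.p6, plus strand, 250 bases before the start). They lie at chr8:104733753-104734002 for Ces2a and chr8:104926010-104926259 for Ces2e. The capitals mark the longest shared run, 17 bases, and 53.2% of 284 alignment columns were identical.
Ces2a: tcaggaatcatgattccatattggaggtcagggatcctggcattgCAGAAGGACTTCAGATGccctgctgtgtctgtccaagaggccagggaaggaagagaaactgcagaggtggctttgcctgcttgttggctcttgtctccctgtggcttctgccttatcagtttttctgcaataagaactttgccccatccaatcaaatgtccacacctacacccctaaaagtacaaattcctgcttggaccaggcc
Ces2e: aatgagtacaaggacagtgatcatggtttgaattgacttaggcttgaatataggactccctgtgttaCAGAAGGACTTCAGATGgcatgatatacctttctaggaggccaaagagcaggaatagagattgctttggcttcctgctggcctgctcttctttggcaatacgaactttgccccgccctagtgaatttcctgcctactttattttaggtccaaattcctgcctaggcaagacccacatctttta

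In the Ces1 group, Ces1g, an esterase linked to hepatic lipid export, had values of 9.08, 10.10, 9.76, 9.57 and 9.63 in HGI and 10.05, 10.17, 10.09, 9.83 and 10.03 in LGI. HGI 2 lay within the LGI range, and the other HGI mice lay below it. The difference was -0.41 ± 0.15 (SE, n = 5 each; limma adjusted p = 0.536) and -0.27 without HGI 1. Ces1e had values of 7.92, 8.26, 8.57, 8.55 and 8.57 in HGI and 8.65, 8.79, 8.67, 8.87 and 8.69 in LGI, without overlap, though 3 HGI mice came within about 0.1 of the lowest LGI mouse. Its difference was -0.36 ± 0.12 (SE, n = 5 each; limma adjusted p = 0.495), and -0.25 without HGI 1. Ces1f stood at -0.37 (limma adjusted p = 0.631), at a probe set of a kind that can read several related genes, and its unadjusted p stayed under 0.05 in 3 of 10 fits that left out 1 array.

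The remaining carboxylesterases lay on both sides of 0. Ces1c, the esterase that liver secretes into mouse plasma, stood at 0.11 (interval -0.11 to 0.33), and Ces1d, a triacylglycerol hydrolase of liver and fat, at 0.11 (interval -0.33 to 0.55), with its other probe sets at 0.23 and 0.12. Ces2g stood at 0.09, Ces5a at 0.12 and Ces4a, with a mean log2 of 4.20, at 0.10. The Ces5a probe set is of a kind that can also read other transcripts. Its mean log2 was 7.55, and the other probe sets of Ces5a, with means of 4.88 and 3.11, stood at -0.08 and 0.17. Ces1h and Ces2f, with a mean log2 of 5.70 and 2.69, both stood at -0.07. Ces2b had an unadjusted p of 0.00761 at -0.28, with a mean log2 of 2.92, below the median of every array.

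Among the flavin-containing monooxygenases, Fmo5, an unusual member that inserts oxygen into ketones, had values of 9.58, 10.04, 10.60, 10.10 and 10.21 in HGI and 10.88, 10.93, 10.75, 10.58 and 10.91 in LGI. LGI 4 lay just below HGI 3, and otherwise the diets did not overlap. The level was 1.63-fold lower in HGI (-0.70 ± 0.15, SE, n = 5 each; limma adjusted p = 0.161). This probe set is of a kind that can read several related genes. The next probe set of Fmo5, of a kind that reads alternative transcripts of 1 gene, stood at -0.64 (limma adjusted p = 0.153), and a dim one at -0.24. Without HGI 3 the brightest probe set passed the threshold, at -0.83 (limma adjusted p = 0.0414), and it did so under no other alternative.

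Fmo1, a broad oxidase of amines and sulfides, stood at -0.29 (limma adjusted p = 0.701). Its values were 10.52, 11.00, 11.23, 11.22 and 10.72 in HGI and 11.25, 11.38, 11.28, 10.87 and 11.33 in LGI. LGI 4 was the only LGI mouse within the HGI range, and the difference was -0.18 without HGI 1. Fmo2, best known from lung, stood at 0.19 (interval -0.28 to 0.65) and its 4 other probe sets between 0.01 and 0.31. Fmo4 stood at 0.04 (interval -0.46 to 0.53). At Fmo1, Fmo2 and Fmo4 the lowest LGI mouse was LGI 4, at 10.87, 6.91 and 6.31. Fmo5 minus Fmo1 ran from -1.12 to -0.50 in HGI and from -0.53 to -0.29 in LGI, so within mice this pair overlapped. It was also chosen after its values were seen and was not tested.

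**Figure D3:**
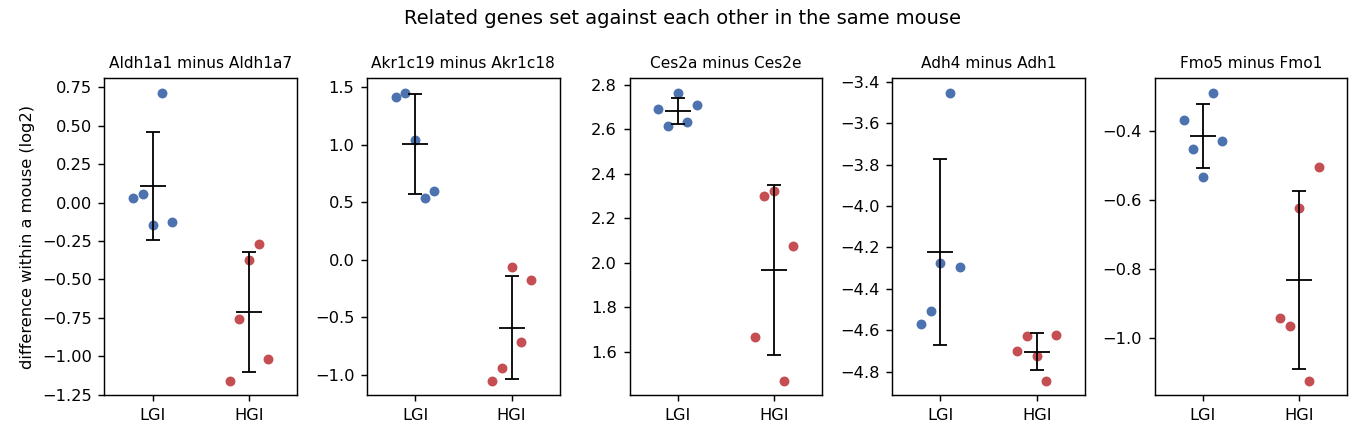
Difference in log2 expression between related genes in the same mouse, for 5 pairs chosen after their values were seen, in LGI (blue) and HGI (red), with the mean and SD of 5 mice in black. A value is a ratio of probe set signals, so its absolute height has no meaning. The diets do not overlap in the first 4 pairs and overlap in Fmo5 minus Fmo1.

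Mice differed across whole families. Over the 38 members with a mean log2 of at least 6, HGI 1 was the lowest HGI mouse at 28 and LGI 4 the lowest LGI mouse at 23, while HGI 3 was the highest of its diet at 17 and LGI 5 at 12. A mouse's median deviation from the 10-array means over these members was -0.32, -0.04, 0.05, 0.05 and -0.17 in HGI and 0.08, 0.15, 0.14, -0.05 and 0.17 in LGI. HGI 2, HGI 3 and HGI 4 thus lay above LGI 4, and HGI 1 and HGI 5 lowest. Over all genes as bright, the same measure was -0.26 in HGI 1 and 0.00 to 0.06 in every other mouse, so the low position of HGI 1 is shared by genes outside these families, and that of HGI 5 (0.05 over all bright genes) is not seen there.

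**Figure D4:**
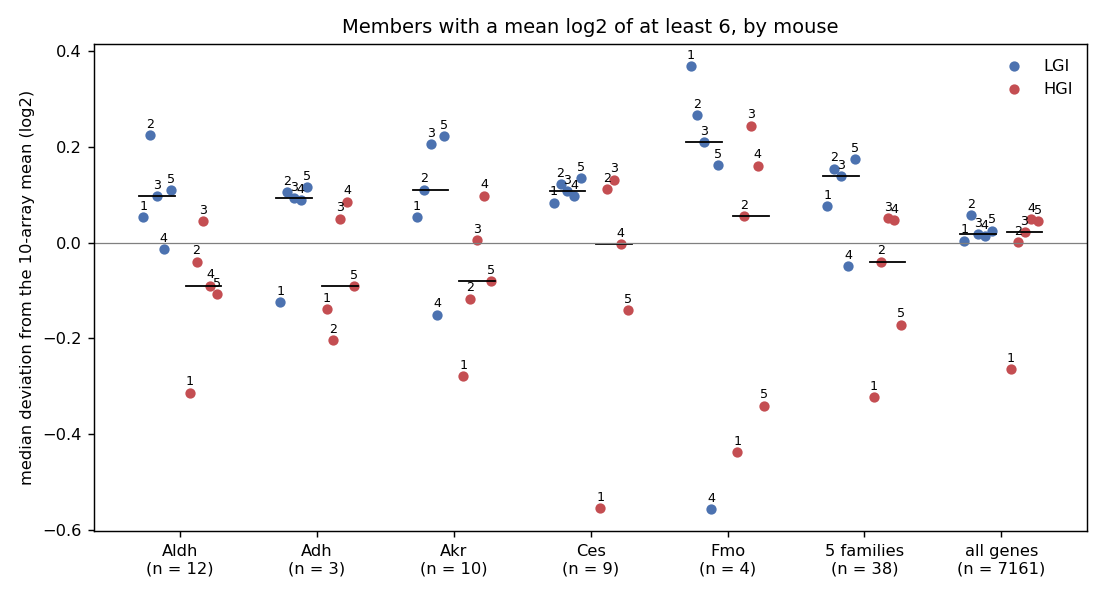
Median deviation of a mouse's log2 values from the 10-array mean of each gene, by family, over the 5 families together and over all genes, counting genes whose mean log2 reached 6. Points are mice, with replicate numbers above them, in LGI (blue) and HGI (red), and bars are the median of 5 mice. HGI 1 lies below 0 in every family and over all genes, and LGI 4 is low in Fmo at -0.56.

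Leaving out HGI 1 and LGI 4, a step chosen after seeing the data, kept 11 of the 13 members under an unadjusted p of 0.05. In that fit 12 of the 56 members were lower at that p, or 21.4%, against 5.74% of all genes. On the higher side were 1 member and 933 of all 18193 genes. Akr1c19 then stood at -1.12, Fmo5 at -0.63, Aldh1a1 at -0.53, Ces2a at -0.51, Aldh1l1 at -0.47, Akr1c13 at -0.38 and Adh4 at -0.36. The same number, 11 of 13, stayed under that p whichever single array was left out, the exceptions being Ces1f and Akr1cl. The 13 had been picked at that p in these same arrays, so their staying under it is not separate support.

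Promoter windows were searched for 2 short motifs on both strands, over the 250 bases before each RefSeq start. The half-site AGGTCA, which nuclear receptors such as PXR, CAR and PPARalpha recognise in pairs, occurred in 10 of the 43 members with a window, or 23.3%, and in 15.8% of all 27025 genes with one. Among the 11 bright members with an unadjusted p under 0.05, 9 had a window and 3 held the half-site (Adh4, Aldh1l1 and Ces2a). The antioxidant response element core TGACNNNGC, bound by NRF2, occurred in 4 of 43 members, or 9.30%, against 11.5% of all genes, and in 0 of those 9. The motifs overlap where TGACCT, the reverse of the half-site, starts a core. A match only describes these letters.

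None of the 7 receptors and factors known to control genes of this kind passed the test in its own transcript. Nr1i2, which encodes PXR, stood at -0.39 (interval -0.76 to -0.03; limma adjusted p = 0.627), with a mean of 6.41 ± 0.37 in HGI and 6.80 ± 0.26 in LGI (SD, n = 5 each). Nr1i3, which encodes CAR, stood at 0.13 (interval -0.41 to 0.67), Ppara at 0.10, Rxra at 0.08, Ahr at 0.14, Nfe2l2, which encodes NRF2, at 0.01, and Hnf4a at -0.11. The smallest adjusted p of the 7 was that of Nr1i2.

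Of 38 other genes of first-step metabolism that were listed, 35 were measured, and 0 passed the threshold. At an unadjusted p under 0.05, 11 were lower in HGI (31.4%, against 6.23% of all genes) and 3 higher (3.07% of all genes). Of the 33 with a mean log2 of at least 6, 9 were lower, or 27.3%, against 9.79% of all genes as bright. Among the 56 members of the 5 families 23.2% were lower at that p. The list was not tested. The median difference was -0.05, which was 0.0091 without HGI 1. The smallest p-values belonged to Nqo1, a quinone reductase (-0.73, limma adjusted p = 0.0575), Ephx1, the microsomal epoxide hydrolase (-1.50, limma adjusted p = 0.118), Cbr1, a carbonyl reductase (-0.64, limma adjusted p = 0.270), and Suox, sulfite oxidase (-0.32, limma adjusted p = 0.473). Nqo1, Ephx1 and Dpyd, the pyrimidine-degrading enzyme, separated the diets without overlap, lower in HGI. That was 8.57% of the 35, against 1.67% of all genes. Of the 33 brighter ones 6.06% did so, against 2.86% of all genes as bright. The 3 on the higher side were Rdh11 (0.65), Sdr9c7 (0.29) and Dhrs1 (0.29), named after their values were seen.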

How the data were processed

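Liver RNA of 10 mice was hybridised to 1 array each, per the labels' protocols. The authors deposited log2 expression values per probe set, made with RMA in R 2.6.1 as far as the submitters' processing notes name tools. Of 45101 probe sets, 64 controls were left out and 45037 tested. Names came from the platform annotation, with gene IDs looked up in RefSeq (GRCm38.p6), which changed 0 symbols. 4 probe sets that carry several symbols, a family symbol among them, were not used.

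HGI was compared with LGI by limma 3.58.1 in R 4.3.3 (lmFit, eBayes, no covariates), with Benjamini-Hochberg adjustment over all probe sets and a threshold of 0.05. All adjusted p-values are limma's unless an exact permutation test (two-sided, 252 assignments of the arrays, smallest p 0.00794) is named. The fit was tested on simulated data, with noise drawn independently for each probe set and changes larger than most differences given here. That test does not show how often differences of the size seen here would be found. The labels do not say whether mice of a diet shared a cage or litter. The number of arrays, 5 per diet, limits the precision.

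Members and lists were chosen with earlier results of these data known. Named members were, in each family, the member of the highest mean, the 4 of smallest p and a fixed list, and the remaining members are given by value; of the other first-step genes, the 4 of smallest p. Promoter windows came from RefSeq and were aligned with Biopython 1.88 (match 2, mismatch -1, gap -5 and -0.5). Alternatives were quantile normalization, median centring, filters on dim probe sets, a variance trend, a replicate block, weighting of arrays, the use of 1 probe set for each gene, the exact test and leaving out arrays. Same-numbered mice of the diets were not paired: the correlations of their deviations lay between -0.13 and 0.04.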

Additional observations from a re-analysis of the deposited data

Results flagged for a closer look

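Of 64 groups of 5 mice at the 32 named members, 9 held a mouse far from the other 4. Chance alone would mark about 1 in 20 of independent groups. The same mice were read at every gene, so the 9 cannot be set against that rate. LGI 4 was the mouse in 6 of the 9. It lay below the other LGI mice at Akr1c20 (9.31 against 9.99 to 10.21), Akr1c6 (11.68 against 12.29 to 12.49), Aldh2 (11.62 against 11.78 to 11.82), Fmo1 (10.87 against 11.25 to 11.38) and Fmo4 (6.31 against 7.28 to 7.57), and above them at Aldh1a1 (13.17 against 12.36 to 12.51). The others were LGI 1 at Adh5 (11.47 against 11.69 to 11.74), HGI 1 at Adh6b (4.58 against 3.70 to 3.85) and LGI 5 at Akr1c18 (9.59 against 8.45 to 8.66).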

How the results depend on the processing

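In the exact permutation test no member could pass, since its smallest possible p came to an adjusted p of 0.475. The count of members past the threshold was 0 under each other alternative except without HGI 3, where it was 1 (Fmo5). It thus ran from 0 to 1 over the fits that left out 1 array. Members lower at an unadjusted p under 0.05 numbered 11 to 15 over those fits and members higher 0 to 1, and 1 was higher without HGI 1 and LGI 4. Of all genes, 4.96% to 6.99% were lower at that p when 1 array was left out. By family the lower members numbered 3 to 5 for Aldh and 1 to 2 for Fmo when 1 array was left out, and 2 for Fmo with array weights and without HGI 1 and LGI 4. The median of each of the 5 families stayed below 0 under every alternative run and moved by less than the spread between mice. With the replicate block 13 members were lower and 0 passed the threshold, and the median over the 5 families stayed at -0.08, so the block changed no call at the adjusted threshold. At an unadjusted p under 0.05 it took in Aldh1b1 and left out Akr1cl. Of the other first-step genes, 1 passed with quantile normalization, the filter at the median signal, array weights or 1 probe set per gene, 2 without HGI 1 and LGI 4, and 0 to 1 when 1 array was left out. At an unadjusted p under 0.05, 7 of them were lower among genes whose mean log2 reached 6, 5 were higher with quantile normalization and 1 with the replicate block, and 0 to 5 when 1 array was left out. Differences near 0 changed sign: Akr1c6 (0.01 as deposited) stood at -0.040 with array weights and -0.078 without HGI 1 and LGI 4, Fmo4 (0.04) at -0.025 and -0.10, Fmo2 (0.19) at -0.024 and Adh6b (0.13) at -0.018 without both arrays, and Aldh2 (-0.04) at 0.0083 with quantile normalization. When 1 array was left out, Akr1c6 ran from -0.13 to 0.073, Akr1c20 from -0.012 to 0.25, Aldh9a1 from -0.092 to 0.061, Ces1d from -0.044 to 0.26, Fmo2 from -0.037 to 0.31, Fmo4 from -0.19 to 0.15 and Adh6b from -0.029 to 0.19. The causes were not tested. Over all probe sets the count past the threshold was 29, 63 with quantile normalization, 64 with array weights, 17 with median centring and 5 to 49 when 1 array was left out.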
